A study of Mus musculus with 34 samples.

Results

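The interleukin-1 (IL-1) genes of mouse chromosome 2 were followed through 30 peak lists of chromatin immunoprecipitation sequencing (ChIP-seq) in bone marrow-derived dendritic cells (BMDCs). The set held 8 genes given by name, of 21938 protein-coding genes of the GENCODE annotation: the cytokines Il1a and Il1b, the receptor antagonist Il1rn, and Il1f5, Il1f6 (also named Il36a), Il1f8, Il1f9 and Il1f10. No measured value entered the rule that named them, but earlier results of these data were known when they were chosen. A promoter was the stretch within 2.5 kb of the start site of a gene's longest transcript, upstream or downstream.

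IL-1 cytokines are early signals of innate immunity. IL-1α and IL-1β bind the same receptor and set off fever, leukocyte recruitment and T cell priming, and the Il1rn product occupies that receptor without signalling. The IL-36 agonists, encoded by Il1f6, Il1f8 and Il1f9, act the same way through a related receptor that the Il1f5 product blocks. Dendritic cells make IL-1 after Toll-like receptor signalling, which sends the NF-κB subunit p65 (RelA) into the nucleus.

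BMDCs were grown for 6 days in GM-CSF from bone marrow of C57BL/6 mice labelled 8 weeks old. The control mice carried the tamoxifen-activated recombinase CreER (CTCF-WT), and the mutants carried CreER;CTCF fl/fl, in which CreER removes the Ctcf gene (CTCF-KO). The study's methods drive CreER from Rosa26, so deletion was not confined to dendritic cells, and the cultures received 4-OH tamoxifen at their start. Floating cells were then selected with CD11c beads. Each genotype was profiled untreated (WT, KO) and after 100 ng/ml of the bacterial product LPS for 3 h (WTLPS, KOLPS). Lists existed in these 4 conditions for p65, CTCF, the cohesin subunit SMC1 and the histone marks H3K27ac, H3K4me3, H3K4me1 and H3K27me3. STAT5, which acts below the GM-CSF receptor, was profiled in WT and KO after 15 min of renewed GM-CSF. The study's methods name biological replicates for each condition. Here 1 list for each antibody and condition was analysed, so the spread between replicates could not be measured, no test was run and every difference below is a description. Intervals given with a fold are exact 95% Poisson intervals on the fragments at the summit and cover counting error only. In bulk ChIP-seq, fewer cells holding a factor and less factor per cell cannot be told apart.

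Of 9 dendritic cell marker genes, 8 had an H3K4me3 promoter peak in WT and 8 in KO, beside 58.1% and 58.7% of all promoters. Of 6 macrophage or monocyte markers 6 and 5 did, of 5 neutrophil markers 2 and 2, of 5 mast cell or basophil, 4 B cell and 3 erythroid markers 1 each in either genotype, and of 4 T or NK cell markers 0 and 0. So H3K4me3 did not separate dendritic cells from monocyte relatives. H3K27ac was at 8 and 7 of the 9 dendritic cell markers in WT and KO, beside 45.2% and 45.6% of all promoters. It was at 4 and 4 of the 6 macrophage or monocyte markers and 1 and 2 of the 5 neutrophil markers. Of the mast cell or basophil, B cell, erythroid and T or NK cell markers, 0 had it in either genotype. Among the narrow-peak lists, coverage estimated from the peaks ranged from 0.705 to 0.855 fragments per base for p65. It was 2.82 to 3.74 for CTCF, 4.50 to 5.77 for SMC1 and 0.748 to 1.198 for H3K27ac, in which the KO lists (0.748 and 0.801) were the shallower.

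In the mouse the 8 genes did not form a single cluster. They lay in a pair of blocks 104.9 Mb apart (mm10). The first block, on the plus strand, held Il1f8, Il1f9, Il1f6, Il1f5, Il1f10 and Il1rn, and its window with 50 kb on either side was chr2:24103161-24401494 (298.3 kb). The second held Il1a and Il1b on the minus strand, with starts 61.2 kb apart, in the window chr2:129249610-129421139 (171.5 kb). The span from the first to the last gene was 105.2 Mb with 1132 protein-coding genes, so the windows of the blocks were analysed in its place. The only other protein-coding genes touching them were Psd4 in the first and Ckap2l in the second. The noncoding Il1bos overlaps the Il1b start on the opposite strand, and Gm14023 overlaps Il1a, and the peaks cannot be assigned to a strand.

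**Figure D1:**
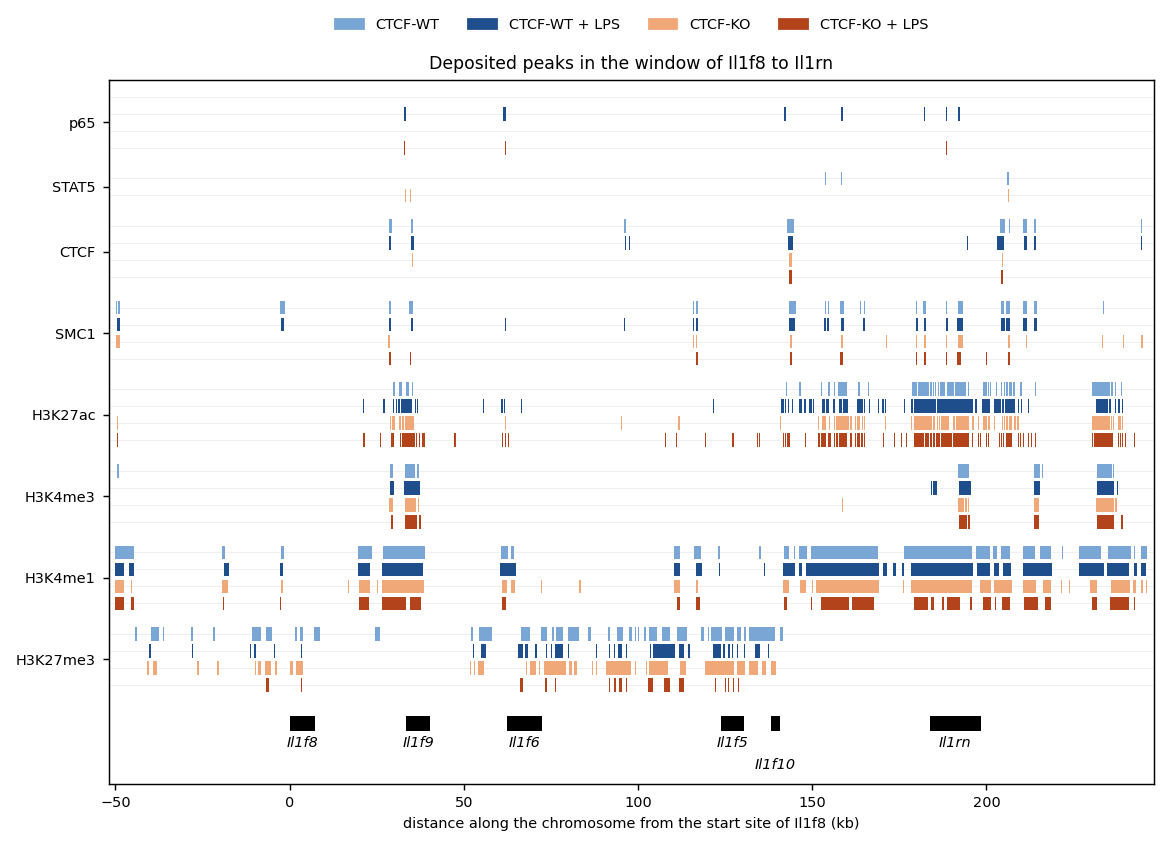
Map of the window from Il1f8 to Il1rn, with distance along the chromosome from the Il1f8 start on the x axis (kb), a row of bars for each antibody and condition and black boxes for the 6 genes. Of the p65 peaks, 7 were listed in WTLPS and 3 in KOLPS. The H3K27me3 bars lie mainly between Il1f6 and Il1f10, with others from upstream of Il1f8 to within Il1f6.

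**Figure D2:**
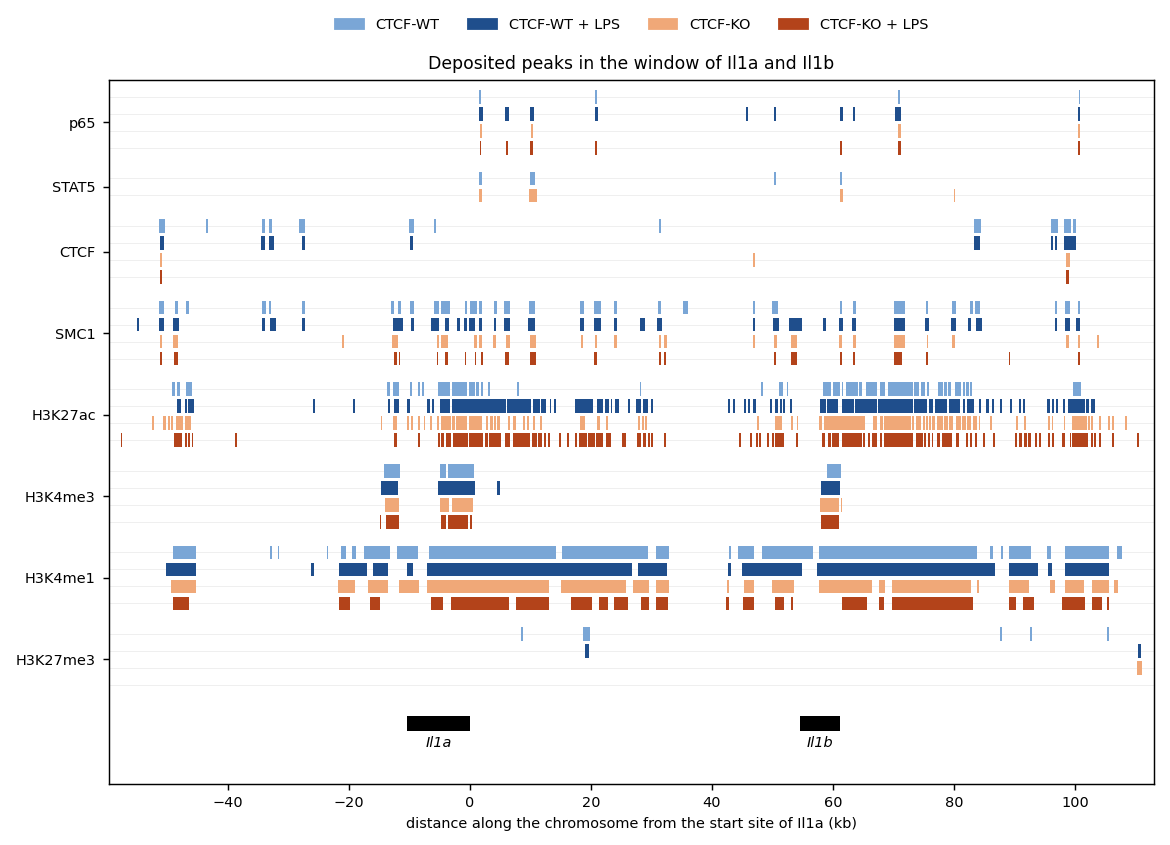
Map of the window of Il1a and Il1b, with distance from the Il1a start on the x axis (kb; both genes read leftwards, so positive values are upstream of Il1a), drawn as rows of bars for each antibody and condition. p65 peaks numbered 4 (WT), 10 (WTLPS), 4 (KO) and 7 (KOLPS), while H3K27ac spread upstream of Il1a in WTLPS, KO and KOLPS.

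The sequences below are the 101 bases around the summits of the sites to which the results return: the p65 sites with an NF-κB motif, the p65 site at the Il1b start, which has none, and a STAT5 and a CTCF site with their motifs. They are from GRCm38.p6, plus strand, 5′ to 3′, and capitals mark the motif, which was searched on both strands.
Il1f9 -286 bp, p65, chr2:24186140-24186240: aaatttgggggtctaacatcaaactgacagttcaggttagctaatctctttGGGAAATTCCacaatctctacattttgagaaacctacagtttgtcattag
Il1f6 -179 bp, p65, chr2:24215189-24215289: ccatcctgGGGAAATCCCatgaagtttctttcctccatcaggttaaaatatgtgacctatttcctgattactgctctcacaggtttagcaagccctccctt
Il1f10 4084 bp, p65, chr2:24295230-24295330: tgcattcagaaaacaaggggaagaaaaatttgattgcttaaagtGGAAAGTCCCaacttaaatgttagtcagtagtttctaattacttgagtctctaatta
Il1rn -1370 bp, p65, chr2:24335433-24335533: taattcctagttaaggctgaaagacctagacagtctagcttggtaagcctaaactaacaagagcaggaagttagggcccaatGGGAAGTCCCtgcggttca
Il1a -20837 bp, p65, chr2:129330759-129330859: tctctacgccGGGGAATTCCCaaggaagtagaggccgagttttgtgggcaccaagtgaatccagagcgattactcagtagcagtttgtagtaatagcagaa
Il1b -9764 bp, p65, chr2:129380853-129380953: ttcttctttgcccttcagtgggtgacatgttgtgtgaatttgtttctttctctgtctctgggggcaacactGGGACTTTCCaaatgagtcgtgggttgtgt
Il1b -221 bp, p65, chr2:129371310-129371410: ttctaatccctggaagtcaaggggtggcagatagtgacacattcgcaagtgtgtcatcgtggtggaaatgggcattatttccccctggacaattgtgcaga
Il1a -1860 bp, STAT5, chr2:129311782-129311882: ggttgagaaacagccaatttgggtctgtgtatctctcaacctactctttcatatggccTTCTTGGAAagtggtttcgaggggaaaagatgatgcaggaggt
Il1rn 20986 bp, CTCF, chr2:24357789-24357889: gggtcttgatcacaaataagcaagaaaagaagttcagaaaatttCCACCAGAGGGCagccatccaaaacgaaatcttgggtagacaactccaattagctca

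The NF-κB consensus lay within 50 bp of the summit at 4 of 7 p65 sites of the first window and 2 of 10 of the second. The same search found it at 11.9% of all WTLPS p65 summits and at 1.62% of start sites of protein-coding genes. The -20837 bp site of Il1a held a pair of overlapping matches. The STAT5 motif TTCNNNGAA lay at 3 of 10 STAT5 sites, namely -1860 bp and -10497 bp from the Il1a start and 15698 bp downstream of the Il1f10 start, beside 37.9% of all WT STAT5 summits and 2.36% of start sites. A strict CTCF consensus of 12 letters lay at 2 of 23 CTCF sites, 20986 bp downstream of the Il1rn start and -22632 bp from the Il1b start, beside 7.8% of WT CTCF summits and 0.939% of start sites. A match is a description of letters, and a window without one says nothing of binding.

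p65 occupied the promoters of Il1a alone before LPS and of 5 of the 8 genes after it. In WT a p65 peak touched 1 of 8 promoters (0.501% of all promoters), and in WTLPS 5 of 8 (2.86%): Il1a, Il1b, Il1rn, Il1f6 and Il1f9. In KO the count was 1 of 8 (0.369%), again Il1a, and in KOLPS 4 of 8 (1.95%), with Il1rn missing. Of the 627 promoters with p65 in WTLPS, 201 (32.1%) had it in KOLPS, against 4 of these 5. At equal coverage the KOLPS count was 3 of 8, beside 5 in WTLPS. At a −log10 p of at least 10 it was 2, beside 4 in WTLPS. Il1f8, Il1f5 and Il1f10 had no p65 peak at the promoter in any condition. The background shares come from all 21938 promoters, and with 8 genes a single gene shifts the share by a large step.

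Il1a, which encodes IL-1α, was the gene occupied in all 4 conditions. Its promoter site, -1706 bp from the start and outside protein-coding genes, had a fold enrichment over local background of 12.3 in WT (7.71–18.6), 19.9 in WTLPS (14.1–27.4), 12.3 in KO (7.75–18.7), with 13.2 in KOLPS (8.57–19.5). WTLPS was the highest, but its interval overlapped the others, and KO and KOLPS were nearly level. Further upstream, the -6196 bp site had a fold of 22.1 in WTLPS (15.9–29.9) and 8.81 in KOLPS (5.17–14.2), with no peak listed without LPS, and these intervals did not overlap. The -10285 bp site had 17.3 in WTLPS, 7.04 in KO and 10.5 in KOLPS, and no peak in WT. The -20837 bp site, with the paired motif, had 7.005 in WT (3.79–12.1), 22.6 in WTLPS (16.4–30.5) and 7.16 in KOLPS (3.96–12.1), with none in KO. At that site WTLPS stood above WT and KOLPS, and its interval was clear of both.

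Il1b, which encodes IL-1β, had p65 at its start only with LPS. The -221 bp site had a fold of 13.5 in WTLPS (8.83–19.8) and 6.05 in KOLPS (3.19–10.7), and the -2314 bp site had 9.16 in WTLPS with no KOLPS peak. A site at -9764 bp was listed throughout, with folds of 8.17 in WT (4.63–13.6), 12.9 in WTLPS (8.40–19.1), 10.6 in KO (6.40–16.5), with 11.0 in KOLPS (6.85–16.9). The 4 intervals overlapped. The most distant site, -39452 bp, had 7.59 in WT (4.20–12.8), 22.1 in WTLPS (15.9–29.9), 12.3 in KO (7.75–18.7), with 8.26 in KOLPS (4.76–13.5), so the LPS value was the higher one in WT and the lower one in KO. The WT and WTLPS intervals were apart there, but those of KO and KOLPS overlapped. Downstream of the gene, sites 10791 bp and 15340 bp from the start had folds of 6.47 and 7.01 in WTLPS and no peak in the other conditions.

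Il1rn, whose product blocks the IL-1 receptor, had weaker p65 sites. The promoter site at -1370 bp had a fold of 5.39 in WTLPS (2.76–9.75), resting on 9 fragments, and no peak in KOLPS. An intronic site 4828 bp into the gene had 5.93 in WTLPS (3.12–10.5) and 7.71 in KOLPS (4.36–12.8), the single shared site of the 10 at which KOLPS was the higher. Another, 8446 bp into the gene in an exon, had 9.70 in WTLPS (5.88–15.2) and none in KOLPS. It lies at a second group of transcript starts 8.4 kb downstream of the first, which was looked at after its values were seen. That start, not the upstream one, carried H3K4me3 in all 4 conditions, with folds of 27.8 in WT, 29.9 in WTLPS, 19.1 in KO, with 15.5 in KOLPS.

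The IL-36 agonist genes were split. At Il1f9 the -286 bp site had a p65 fold of 10.2 in WTLPS (6.29–15.9) and 8.81 in KOLPS (5.17–14.2), which differ by less than counting error. At Il1f6 the -179 bp site had 15.1 in WTLPS (10.1–21.7) and 4.95 in KOLPS (2.45–9.23), on 27 and 8 fragments, so the intervals were apart although both sites hold the NF-κB motif at the start of the gene. Il1f8, the other agonist gene, had no site of its own, since the nearest was that of Il1f9. Between Il1f10 and Il1rn, sites 4084 bp and 20679 bp downstream of the Il1f10 start had folds of 8.62 and 8.08 in WTLPS and no peak in KOLPS.

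**Figure D3:**
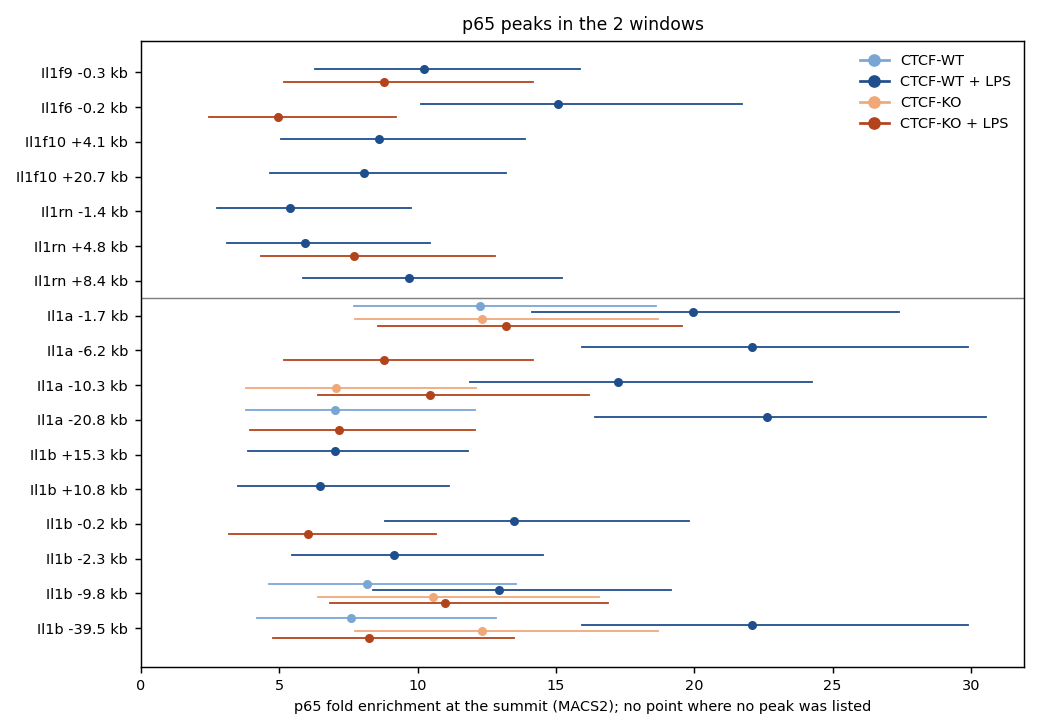
p65 fold enrichment at the summit (x axis, linear) at the 17 sites of both windows, named by the nearest member and the distance from its start; points are the values of the 4 conditions and lines the 95% Poisson intervals. WTLPS is the highest value at each site but the intronic Il1rn one, and no site of the first window has a value without LPS.

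Over the whole windows, p65 peaks numbered 0, 7, 0 and 3 in the first and 4, 10, 4 and 7 in the second (WT, WTLPS, KO, KOLPS). Per 100 kb the second window held 2.33 peaks in WT, where the genome held 0.0287, and 5.83 in WTLPS, where it held 0.201. Of the 10 WTLPS peaks of the second window, 7 were overlapped by a KOLPS peak, and of the 7 in the first, 3 were, beside 22.7% of the whole WTLPS list. All 10 KOLPS peaks of the windows overlapped a WTLPS peak (72.0% of the list). The lists' own lowest −log10 p ran from 4.35 in WTLPS to 6.05 in WT, and at a common threshold the counts were again 0, 7, 0 and 3 and 4, 10, 4 and 7. Sharing rose with height across the list, from 5.34% in the lowest of 4 equal fold classes to 56.3% in the highest. Of the 17 window peaks 9 were in the highest class and all 9 were shared, while 1 of the other 8 was. At the 10 shared sites the KOLPS fold was lower at 9, and the counting intervals were apart at 4, namely Il1f6, Il1a at -6196 bp and -20837 bp, and Il1b at -39452 bp.

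H3K27ac, the mark of active enhancers and promoters, was absent in WT from 3 p65 sites upstream of Il1a and present in WT at those around the Il1b start. Within 1 kb of the p65 summit (2001 bases), the -6196 bp site of Il1a had 0 bases under H3K27ac peaks in WT, 1757 in WTLPS, 333 in KO, with 1052 in KOLPS. The -10285 bp site had 0, 1622, 493 and 1402 in that order, and the -20837 bp site 0, 1345, 533 and 1873. So the 3 upstream sites had no acetylation peak in WT, had some in KO without LPS and had most with LPS in either genotype. In contrast the -9764 bp site of Il1b was fully covered (2001 bases) in all 4 conditions, and the -39452 bp site had 1260 in WT and 2001 in the others.

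In the first window the Il1f6 site went from 0 in WT to 460 in WTLPS, 167 in KO, with 889 in KOLPS, and the Il1f9 site from 980 to 2001, 1562 and 1730. The -1370 bp and 8446 bp sites of Il1rn were covered by 1819 to 2001 bases throughout. Over all sites the median in the second window was 621 bases in WT, 1689.5 in WTLPS, 1096 in KO, with 1622 in KOLPS. Counted by overlap, 3 of the first window's 7 and 4 of the second's 10 WTLPS p65 peaks met an H3K27ac peak in KO and none in WT, beside 9.52% of the whole p65 list. The first window's count depends on the peak edges. Within 1 kb of the summit, 6 of the first window's 7 sites had some H3K27ac in WT and 6 in KO. In the second window 6 of 10 sites did in WT and 9 in KO. The KO H3K27ac list had the lowest coverage of the 4, so its peaks were listed at less depth. With 1 list a condition, genotype and library cannot be told apart.

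**Figure D4:**
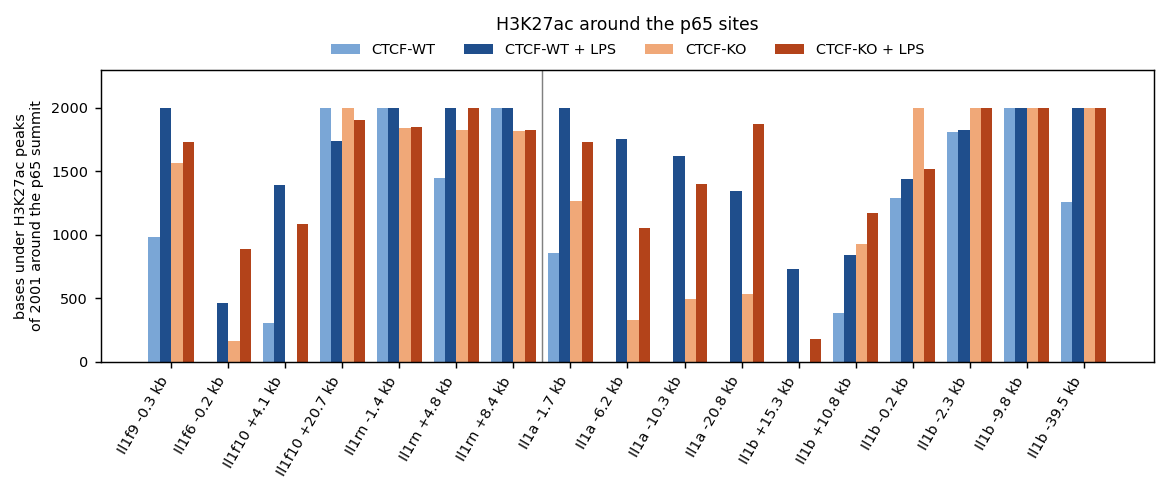
Bases under H3K27ac peaks within 1 kb of each p65 summit (y axis, of 2001) for the 17 sites, with a bar for each condition and the grey line between the windows. The 3 upstream Il1a sites have no WT bar and a KO bar of 333 to 533 bases.

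The windows as a whole followed the same order. H3K27ac covered 32.0, 51.7, 36.7 and 44.4 kb of the first window and 30.7, 62.4, 43.6 and 52.0 kb of the second in WT, WTLPS, KO and KOLPS. As a share, the second window was 17.9%, 36.4%, 25.4% and 30.3% covered, while the genome was 2.24%, 2.19%, 1.52% and 1.19% covered, so the KO windows were above WT where the KO list as a whole was below. With the fragments brought to equal coverage, the second window had 30, 56.2, 43.6 and 51.7 kb.

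At the promoters, H3K27ac touched 4 of 8 in WT (45.2% of all promoters), 6 in WTLPS (42.1%), 5 in KO (45.6%), with 5 in KOLPS (41.8%). Il1a, Il1b, Il1rn and Il1f9 had it in each condition, Il1f6 in all but WT, and Il1f5 in WTLPS only. At Il1f9 the fold went from 5.52 in WT (2.99–9.52) to 9.55 in WTLPS, 15.4 in KO (10.3–22.4), with 19.4 in KOLPS (13.6–26.9). KO exceeded WT there beyond counting error. The fold was also higher in KO at most of the receptor, inflammasome and adaptor genes counted further below that had a peak in both. Nlrp3, for example, had 9.20 in WT and 14.3 in KO. Irak4 alone was lower (9.66 and 9.15), and Il1r1, Il18r1 and Sigirr had a peak in WT and none in KO. Poisson intervals do not cover a shift between whole lists, so the difference cannot be assigned to Il1f9. A promoter's fold is that of the highest peak touching it, whose summit can move between conditions. The H3K27ac promoter fold of Il1a was 8.74, 14.1, 13.7 and 20.6, with summits 2578, -673, 1766 and 1783 bp from the start, and of Il1b 10.1, 11.8, 17.2 and 15.0, in the same order of conditions. For Il1rn the WTLPS value of 24.6 belongs to a wide peak whose summit is 9004 bp from the start, beside 10.6, 12.01 and 12.8 in WT, KO and KOLPS.

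H3K4me3, the mark of promoters in use, touched 3 of 8 in WT (58.1%), 4 in WTLPS (58.6%), 3 in KO (58.7%), with 3 in KOLPS (57.7%): Il1a, Il1b and Il1f9, with Il1rn at its upstream start in WTLPS. The fold at Il1a was 20.2 in WT (14.8–26.9), 23.8 in WTLPS (17.8–31.1), 12.7 in KO (8.54–18.3), with 13.8 in KOLPS (9.42–19.7). The KO values were the lower pair, although their intervals met those of WT. At Il1f9 the folds were 17.0 in WT and 16.7 in WTLPS against 12.7 in KO, with 9.88 in KOLPS, while at Il1b it stayed between 7.62 and 9.75. The lower KOLPS values were not particular to Il1a and Il1f9. Every receptor, inflammasome or adaptor gene counted further below with H3K4me3 in both LPS lists was lower in KOLPS. Myd88, for example, had 44.6 in WTLPS and 23.0 in KOLPS. Without LPS most of them were lower in KO than in WT, but Irak4 and Sigirr were higher. Il1f6 had no H3K4me3 peak in any condition despite its p65 peak.

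The marks split the 8 genes. H3K27me3, laid down by Polycomb complexes at silent genes, touched the promoters of 3 of 8 in WT (27.8%), 2 in WTLPS (21.1%), 3 in KO (28.4%), with 1 in KOLPS (12.2%), always from Il1f8, Il1f5 and Il1f10. Over the gene and 2.5 kb upstream, Il1f5, the IL-36 receptor antagonist gene, was 72.8% covered in WT, 42.7% in WTLPS, 88.4% in KO, with 12.7% in KOLPS. Il1f10, which encodes IL-38, was covered 73.2%, 6.93%, 49.6% and 0%. Il1a, Il1b, Il1rn and Il1f9 had no H3K27me3 base in any of the 4 lists. These 4 were 45.0% to 94.3% covered by H3K4me1, except Il1b in KOLPS at 24.2%, while Il1f8, Il1f5 and Il1f10 stayed at 10.1% or less.

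Il1f6 sat between these groups, with 23.6%, 19.2%, 17.7% and 8.33% of H3K27me3 and 22.2%, 36.9%, 24.5% and 9.40% of H3K4me1. Its H3K27me3 lay outside the promoter. H3K27me3 covered 57.7, 26.1, 53.6 and 11.0 kb of the first window and 2.1, 1.2, 0.8 and 0 kb of the second. The lower value with LPS was not particular to these genes, since the whole lists covered 117.0, 56.7, 112.8 and 18.7 Mb. H3K4me1 promoter peaks were found at 7 of 8 genes in WT (57.7%), 8 in WTLPS (58%), 6 in KO (57.5%), with 6 in KOLPS (47.1%).

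**Figure D5:**
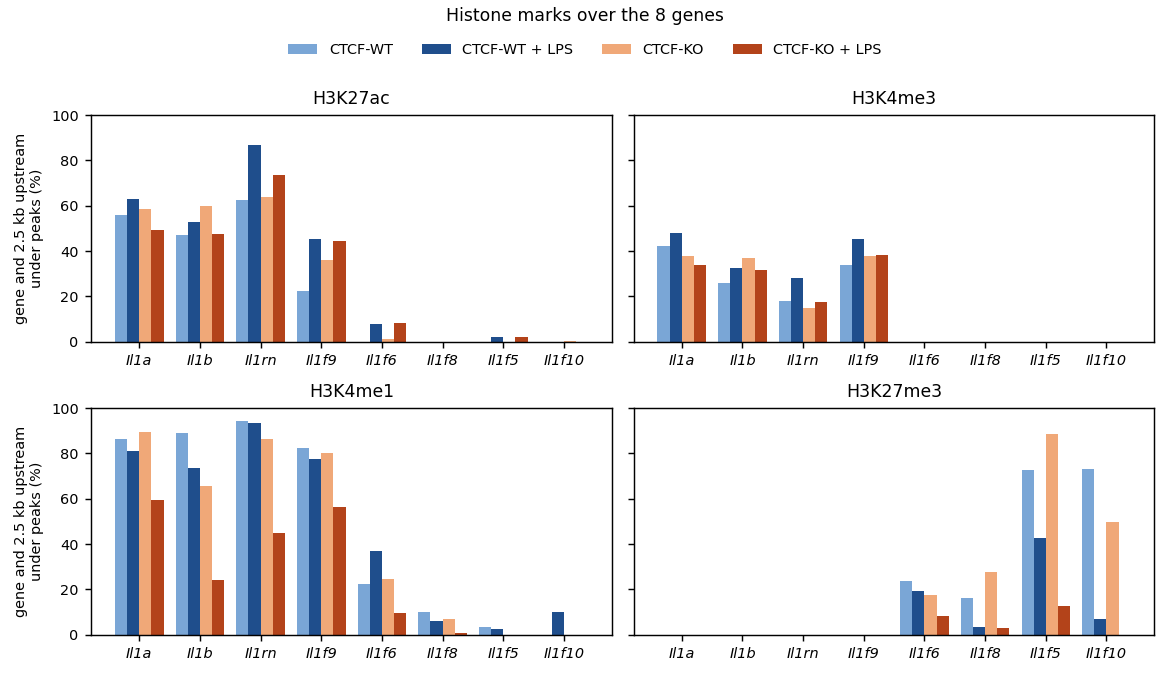
Percent of each gene and its 2.5 kb upstream under peaks of H3K27ac, H3K4me3, H3K4me1 and H3K27me3 (y axis, 0 to 100%) for the 8 genes and 4 conditions. Il1a, Il1b, Il1rn and Il1f9 carry the first 3 marks and no H3K27me3, Il1f8, Il1f5 and Il1f10 carry H3K27me3, and Il1f6 has some of each except H3K4me3.

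STAT5 and p65 peaks overlapped at the promoters of Il1a and Il1b, and at that of Il1f9 for the KO STAT5 peak, but STAT5 was profiled only without LPS. At the Il1b and Il1f9 starts p65 was listed only with LPS, so joint occupancy there was not measured. STAT5 touched 2 of 8 promoters in WT (4.08%) and 3 in KO (3.4%): Il1a and Il1b in both, and Il1f9 in KO. At Il1a the -1860 bp site had a fold of 9.88 in WT (6.35–14.7) and 12.9 in KO (9.08–17.9), and at Il1b the -149 bp site had 13.7 (9.48–19.3) and 13.3 (9.38–18.4). The -10497 bp site of Il1a, within the p65 site there, had 17.6 in WT and 17.4 in KO. These 3 differed between genotypes by less than counting error. At Il1f9 the -186 bp site had 7.03 in KO (4.31–10.9) and a site 1498 bp into the gene, in an intron, had 5.55, with no WT peak at either, and the KO STAT5 list was the deeper (1.70 against 1.33 fragments per base). Each window held the same number in WT and KO, 3 in the first and 4 in the second, of which 1 and 3 WT peaks were overlapped by a KO peak (64.8% of the list).

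Il1f9 was the member with CTCF at its promoter, taken at the start of the longest transcript. Within 2.5 kb of the second group of Il1rn starts, 8.4 kb downstream, a CTCF peak was listed in WTLPS only, with a fold of 4.85. A CTCF peak touched 1 of 8 in WT (30%), 1 in WTLPS (27.6%), 1 in KO (19.6%), with 0 in KOLPS (10.4%), each time Il1f9, at 1872 bp into the gene. That intronic site had a fold of 11.2 in WT (8.41–14.6), 6.398 in WTLPS (4.33–9.15) and 4.05 in KO (2.38–6.52). The WT and KO intervals did not overlap. With 8 genes, the counts lay within 1 or 2 genes of the share over all promoters. None of the 17 p65 sites met a CTCF peak in any condition (7.76% of the WTLPS p65 list met one in WT).

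CTCF peaks numbered 9, 10, 3 and 2 in the first window and 12, 9, 3 and 2 in the second, so KO lists still held some. A KO peak overlapped 3 of 9 and 2 of 12 WT peaks, beside 23.7% of the whole WT list. The highest of the first window, 5817 bp downstream of the Il1f10 start and outside genes, had folds of 25.1 in WT (20.8–30.04), 21.8 in WTLPS (17.8–26.6), 16.5 in KO (12.7–20.95), with 13.4 in KOLPS (9.97–17.5). Its KOLPS interval was clear of the WT one. The site 20986 bp downstream of the Il1rn start had 19.8, 18.1, 7.85 and 4.97, while a neighbour at 27319 bp with 23.2 in WT and 15.4 in WTLPS had no KO or KOLPS peak, nor did the one at 30335 bp, with 14.1 and 8.60, beside the Psd4 start.

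In the second window the 2 kept sites lay near its edges, outside genes. The one 50998 bp downstream of the Il1a start, beyond Ckap2l, had folds of 20.3, 14.1, 9.62 and 7.07, and the one at -37611 bp from the Il1b start had 19.4, 19.9, 8.86 and 6.28. Between them, WT sites at -22632 bp from Il1b (13.5), in a Ckap2l intron 34055 bp downstream of the Il1a start (11.0) and in an Il1a exon (9.92) had no KO peak. The KO lists were shallower in CTCF (2.95 and 2.82 against 3.74 and 3.53 fragments per base), and at equal coverage the second window counted 9, 9, 3 and 2.

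SMC1 was spread more widely than CTCF in both windows. It touched 5 of 8 promoters in WT (31.1%), 6 in WTLPS (27.5%), 3 in KO (22.1%), with 4 in KOLPS (14.2%), with Il1a, Il1b and Il1rn in each condition and Il1f6 in WTLPS only. In the windows it numbered 23, 21, 16 and 11 and 34, 36, 27 and 22 peaks. KO peaks overlapped 15 of 23 and 23 of 34 WT peaks (34.5% of the list), and KOLPS peaks overlapped 9 of 21 and 19 of 36 WTLPS peaks (23.3%). At the p65 sites of the second window, SMC1 met 9 of 10 in every condition, where the whole p65 list gave 72.4%, 88.0%, 66.8% and 65.2%. In the first it met 4, 5, 4 and 4 of 7. At the Il1b start, the -172 bp site had an SMC1 fold of 4.06 in WT (2.68–5.92), 9.17 in WTLPS (7.05–11.7), 6.63 in KO (4.80–8.93), with 6.19 in KOLPS (4.32–8.62). The WTLPS interval was clear of that of WT and overlapped those of KO and KOLPS. The neighbouring -2348 bp site stayed between 7.34 and 8.57, and the promoter site of Il1rn, at -1367 bp, had 8.28, 7.69, 6.63 and 6.55, with overlapping intervals.

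Of 18 genes for IL-1 family receptors, inflammasome parts and adaptors, taken as a list, 1 had a p65 promoter peak in WT, 5 in WTLPS, 1 in KO, with 1 in KOLPS, where all promoters gave 0.501%, 2.86%, 0.369% and 1.95%. The gene in all 4 was Nlrp3, the inflammasome sensor that leads to IL-1β cleavage, with folds of 11.7, 41.0, 8.80 and 19.3. Casp1, which encodes that protease, had 3.77 in WTLPS, and Casp4, Il18 and Myd88 had 7.01 each, all without a KOLPS peak. H3K27ac was found at 16, 16, 13 and 14 of the 18 (45.2%, 42.1%, 45.6% and 41.8% of all promoters). H3K4me3 was at 14, 15, 15 and 12 (58.1%, 58.6%, 58.7% and 57.7%), and STAT5 at 4 in WT (4.08%) and 3 in KO (3.4%). So 1 of the 5 listed genes and 4 of the 5 IL-1 genes with p65 in WTLPS had it in KOLPS, beside 32.1% of all promoters with p65 in WTLPS, and the difference was not tested. The listed genes without a KOLPS peak had WTLPS folds of 3.77 to 7.01, and the 4 IL-1 genes with one had 10.2 to 19.9. Across the whole p65 list, sharing rose from 5.34% in the lowest fold class to 56.3% in the highest. Peak height and set of genes therefore cannot be told apart here.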

How the data were processed

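ChIP-seq peak lists of mouse BMDCs (30 lists and 4 inputs) were used as deposited. The submitters' processing notes name BWA 0.7.12, Picard 1.77, MACS2 2.1.2 and deepTools 3.1.3 on mm10; the study's methods name other versions of these tools. They state 2 biological replicates for each ChIP-seq condition, with peaks called for each, and for the experiments in general that replicates were merged. Whether each list rests on 1 replicate or on both was not given in the sources used here. The deposited columns used were the fold ratio over local background, the −log10 p-value and −log10 q-value, which the authors took from MACS2, and the summit position, an offset. Lowest −log10 values differ between antibodies, H3K4me1 and H3K27me3 lists are broad regions with averaged values, and the STAT5 and H3K4me1 antibody sources are given differently in labels and methods. Inputs were not analysed here.

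Peaks were placed on GENCODE vM21 genes with Python 3 scripts (numpy, pandas, scipy and matplotlib), any shared base counting as overlap. Fragments at a summit were solved from the fold and p-value, and coverage from their background. Fragment recovery and overlap searching were tested on simulated data. Members and lists were chosen with earlier results of these data known. Named were the 8 genes, other protein-coding genes in the windows, the 18 pathway genes, every p65, STAT5 or CTCF peak touching a promoter, the 5 highest WTLPS p65 and WT CTCF peaks of each window, and the 3 genes most like each member with p65. Beyond these, sites were named where a result turned on them, after their values were seen. Alternatives were the window and promoter reach, a stricter and a common threshold, equal coverage and the overlap rule.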

Additional observations from a re-analysis of the deposited data

Results flagged for a closer look

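With LPS some values of the windows moved one way in WT and the other way in KO, with 1 list for each, so the difference was not tested. CTCF peaks in the first window changed by 1 in WT (9 to 10) and by -1 in KO (3 to 2). SMC1 peaks in the second window changed by 2 in WT (34 to 36) and by -5 in KO (27 to 22). H3K4me3 in the first window changed by 3.1 kb in WT and -0.9 kb in KO, and in the second by 1.9 kb and -1.0 kb. H3K4me1 changed by 4.5 kb in WT and -27.9 kb in KO in the first window, and by 3.2 kb and -23.5 kb in the second. The H3K4me1 list of KOLPS covered 148.6 Mb in all, beside 232.1 Mb in KO, 258.9 Mb in WT and 263.0 Mb in WTLPS. The whole SMC1, CTCF and H3K4me3 lists were also smaller in KOLPS than in KO. The p65 list was larger, with 504 peaks in KO and 1752 in KOLPS. SMC1 peaks went from 63638 to 57354 with LPS in WT and from 29965 to 17241 in KO. CTCF peaks went from 60537 to 54020 in WT and from 20151 to 11576 in KO. H3K4me3 cover went from 43.9 to 39.8 Mb in WT and from 45.8 to 35.8 Mb in KO.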

How the results depend on the processing

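Of 122 values under the alternatives, 109 stayed within 1.5 times the main value and 13 did not. Windows reaching 20 kb held 12 CTCF peaks in WT, 11 in WTLPS and 2 in KOLPS, beside 21, 19 and 4. At a −log10 p of at least 10, SMC1 peaks numbered 23 in KO, with 21 in KOLPS, beside 43 and 33, H3K27ac covered 36.2 kb in WT and 64.1 kb in KOLPS, beside 62.8 and 96.3 kb, and 2 genes in place of 4 had p65 at the promoter in KOLPS. Promoters of 1 kb gave 0 genes with p65 in WT, 3 in WTLPS and 0 in KO, since the promoter sites of Il1a and Il1rn lie farther out. With 50% of a peak to be covered, 1 of the 21 WT CTCF peaks in place of 5, and 5 of the 17 WTLPS p65 peaks in place of 10, were shared with the KO. The cause was not tested beyond the construction of each alternative. Equal coverage, a common threshold, windows of 100 kb, promoters of 5 kb, all transcript starts, summits in the promoter and summits within 500 bp moved none of these counts past 1.5 times. No paired analysis was possible because each condition had 1 list. p65 sites rest on 8 to 41 fragments.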

Other observations

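By the highest promoter fold over the 30 lists (log2, a fold of 1 where no peak was listed), the genes most like Il1a were Cd302, Ctsz and Fas, with Pearson r of 0.965, 0.963 and 0.957. For Il1b they were Lair1, Il7r and Zfp36 at 0.960, 0.958 and 0.952. For Il1f9 they were Sbds, Snf8 and Il6 at 0.880, 0.865 and 0.861, for Il1f6 Camp, Atp6v1e2 and Spink13 at 0.863, 0.825 and 0.806, and for Il1rn Ang2, Mucl1 and Gm11146 at 0.941, 0.931 and 0.925. Between members the value was 0.785 for Il1a with Il1b, 0.62 for Il1b with Il1f9 and 0.39 for Il1f6 with Il1a. Lists of an antibody are not independent of each other and differ in depth and lowest p, so these are descriptions. A promoter peak was present in 22 of 30 lists at Il1a, 21 at Il1f9, 20 at Il1b, 14 at Il1rn, 10 at Il1f6, 8 at Il1f8, 7 at Il1f5 and 4 at Il1f10.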
